A study of Mus musculus with 53 samples.

Results

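A set of 200 probes was taken from the 20175 probes counted in a spatial profiling experiment, as those that stood highest in cortex pericyte segments over both kinds of median eminence (ME) segment in 1 replicate of mice. The members were chosen by their measured CPM in replicate 3 alone. Counts were summed over its segments of each type and scaled to counts per 1000000 counts (CPM), and 1267 probes reached at least 100 CPM in the cortex pericyte sum. Of these, 550 exceeded the higher ME sum by more than 1.5 times, with ME values floored at 5 CPM, and the 200 with the highest ratios are described here. The ratio that chose them ran from 32.7 down to 3.23, with a median of 4.53, and the first probe left out had a ratio of 3.22, so the end of the list is not a break in the data. In replicate 3 the chosen probes lay between 101 and 1999 CPM in the cortex pericyte sum. Values of replicate 3 are therefore a description only, and every test below used replicates 1, 2 and 4.

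All segments came from Pdgfra-H2B-EGFP/+ reporter mice, which carry a nuclear green fluorescent protein under control of the Pdgfra locus. Areas of brain sections were lit within a stained mask and the probe tags they released were counted. Pericyte segments were Desmin-stained areas in the ME or the cortex, fibroblast segments were GFP areas in the ME, and 1 segment was a GFP area in the cortex. The 53 segments comprise 20 ME fibroblast, 17 ME pericyte, 15 cortex pericyte and 1 cortex GFP segments in 4 labelled replicates, with 15, 13 and 6 of the first 3 types in replicate 3. Replicate numbers were taken as animals, since the study's methods give as many animals for these segments as the labels give replicates. Replicates 1, 2 and 4 each came from 1 slide, replicate 3 from 3 slides, and replicate 1 had no ME pericyte segment. Replicates 1 and 2 (7 segments) were on one plate according to the file headers and replicates 3 and 4 (46 segments) on another.

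Pericytes sit on the capillary wall within the basement membrane and help to keep the blood–brain barrier closed in the cortex. The ME is a circumventricular organ at the base of the hypothalamus whose capillaries are leaky, so that hormones can pass between brain and blood. Pdgfra is expressed by fibroblasts and also by oligodendrocyte precursor cells of the brain parenchyma, and Desmin is an intermediate filament of pericytes and muscle cells. A stained area is not a purified cell type, since neighbouring processes in the same section are collected with it. The files and reference tables used here do not pair probes with genes, so the labelled cell types could not be checked against markers. Probes are given by rank in the list, and 4 are named by identifier.

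The 200 probes took a several times larger share of the counts in cortex pericyte segments than in any ME segment of the replicates that did not choose them. In the summed counts they held 6.67% in replicate 1, 4.88% in replicate 2 and 6.61% in replicate 4, a mean of 6.05% ± 1.02 (SD, n = 3). In ME fibroblast sums the shares were 1.37%, 1.47% and 0.947%, a mean of 1.26% ± 0.278 (SD, n = 3). In ME pericyte sums of replicates 2 and 4 the shares were 1.20% and 1.11%. The cortex and ME values did not overlap. In a tissue segment, fewer cells that carry a transcript and less of it per cell cannot be told apart.

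Single segments showed the same separation. The 9 cortex pericyte segments of replicates 1, 2 and 4 ranged from 3.24% to 7.17% with a median of 6.46%. The 5 ME fibroblast segments of those replicates ranged from 0.917% to 1.47% with a median of 0.967%, and the 4 ME pericyte segments from 1.06% to 1.20%. The lowest cortex value came from 1 of the 2 cortex pericyte segments of replicate 2, with 25864 counts and 28 nuclei. The other, with 28068 counts and 87 nuclei, held 6.38%. All 6 cortex pericyte segments of replicate 4 lay between 5.60% and 7.17%, beside 5.52% to 6.87% in the 6 of replicate 3.

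**Figure D1:**
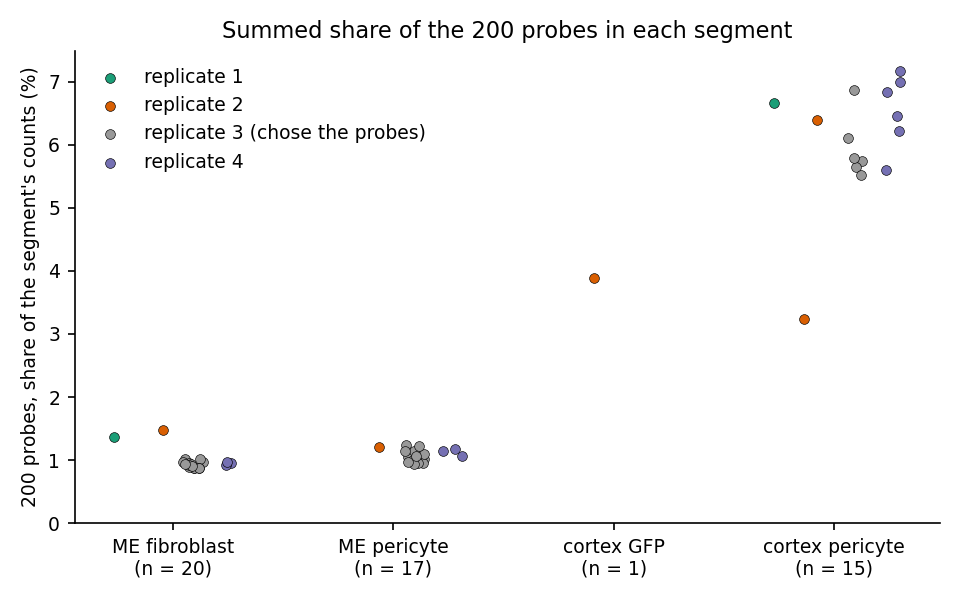
Summed share of counts held by the 200 probes (y axis, %) in each of the 53 segments, by segment type on the x axis and coloured by replicate. Replicate 3 chose the probes. The cortex pericyte segments sit between 3.24% and 7.17%, the cortex GFP segment at 3.89%, and the ME segments between 0.876% and 1.47%.

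The probes lay nearer the middle of all probes in the ME and near the top of the range in the cortex. The median of the 200 probes was 219, 167 and 230 CPM in the cortex pericyte sums of replicates 1, 2 and 4, where the median of all probes was 24.3, 37.1 and 31.8 CPM. In the ME fibroblast sums the 200 probes had medians of 48.6, 52.6 and 40.3 CPM, against 32.4, 35.0 and 30.3 CPM over all probes. In the ME pericyte sums of replicates 2 and 4 the medians were 37.8 and 40.4 CPM, against 37.8 and 35.4 CPM. In replicates 1 and 2 these ME medians did not exceed the level of 3 counts. That level was 48.6 and 52.6 CPM in the ME fibroblast sums and 113 CPM in the ME pericyte sum. No background level was set, so how far ME values lay above background is not known. By rank among all probes of a sum, the median of the 200 stood at percentile 97.5, 96.7 and 98.2 in the cortex pericyte sums and between 54.7 and 70.3 in the 5 ME sums. In the ME pericyte sum of replicate 2, which held 26490 counts, 54 of the 200 probes had no count, and a count of 0 there allows a level of up to 113 CPM. In the other ME sums of these replicates 1 to 17 had no count.

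Most of the 200 probes were higher in the cortex pericyte sum than in the ME fibroblast sum of each replicate, fewest in replicate 2. Differences in log2 CPM, scaled by the upper quartile, had a median of 2.68 in replicate 1, 1.67 in replicate 2 and 2.83 in replicate 4, where all probes had medians of 0.00, 0.00 and 0.32. Differences above 0 numbered 193, 167 and 200 of the 200 probes, beside 48.5%, 38.5% and 63.3% of all probes, and 9 of the 200 lay below -1 in replicate 2. Averaged over the 3 replicates, the median of the 200 was 2.38 (SD of the replicate medians 0.63) and that of all probes 0.17. In 165 of the 200 the difference was above 0 in all 3 replicates, beside 2961 of all 20175 probes. It exceeded 1 in all 3 in 121 of the 200, beside 620 of all probes.

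Against ME pericyte segments, which share the stain that defined the cortex segments, the 200 probes were also higher in the cortex. The median of the 200 probes was 2.26 in replicate 2 and 2.50 in replicate 4, while the medians of all probes were 0.37 and 0.01. Of the 200, 179 and 198 were above 0, beside 54.9% and 50.3% of all probes. The mean over both replicates had a median of 2.36 (SD of the replicate medians 0.17). Both sets of differences use the same cortex sums, so they are not separate evidence. They are set side by side only.

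**Figure D2:**
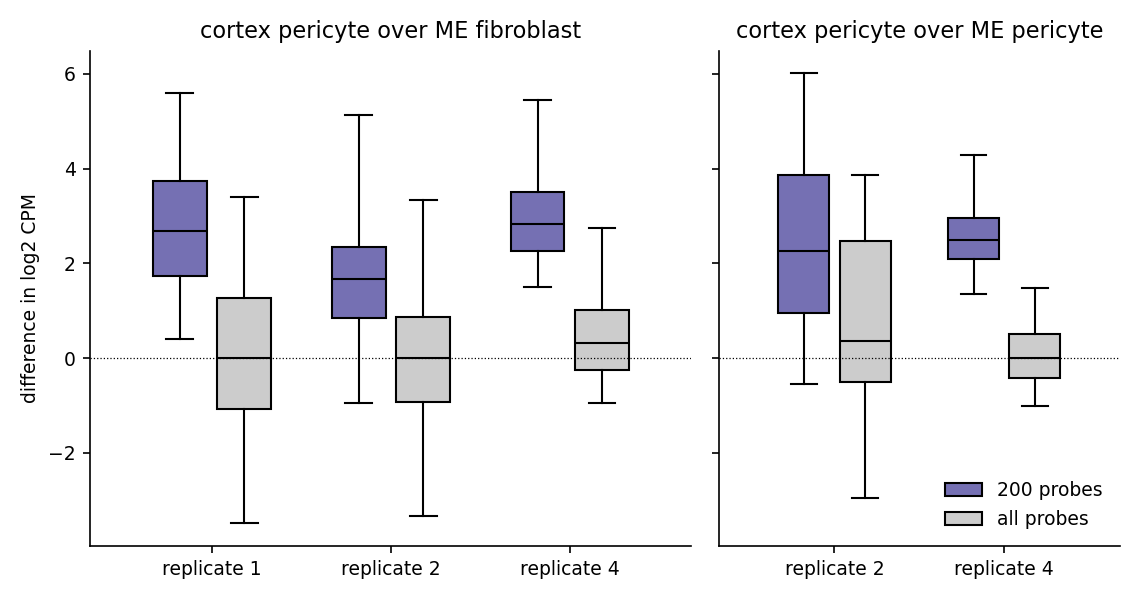
Difference in log2 CPM (y axis) between the cortex pericyte sum and the ME fibroblast sum (left) or ME pericyte sum (right) of the same replicate, for the 200 probes and for all probes. Boxes span the quartiles with the median as a line, and whiskers the central 90% of probes. The medians of the 200 probes lie between 1.67 and 2.83, and those of all probes between 0.00 and 0.37.

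In edgeR's quasi-likelihood test over the sums of replicates 1, 2 and 4, with the replicate as a block and calls at an adjusted p (Benjamini-Hochberg) under 0.05 and a log2 fold change over 1, most of the 200 probes were called higher in the cortex. With no filter on low counts, 155 of 200 were higher than in ME fibroblast segments, where 1.48% of all 20175 probes were, and 145 of 200 were higher than in ME pericyte segments, where 1.04% were. Members had to reach 100 CPM in the cortex pericyte sum of replicate 3, where the median of all probes was 34.0 CPM. The shares over all probes are thus not of probes of like level. No member was called lower. With filterByExpr at a minimum count of 10, only 139 of the 200 were tested. Probes of this list passed that filter mostly through the cortex, since 135 of the 200 reached its level of 168 CPM in at least 2 cortex sums and 14 did so in at least 2 ME sums, so the filtered counts carry no weight of their own. Under the filter 129 were called higher than in ME fibroblast segments, beside 22.8% of the 999 probes tested, and 130 higher than in ME pericyte segments, beside 21.4%. One member, described below, was called lower than in ME pericyte segments, beside 16.9% of the probes tested.

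Replicate 4 held 1350676 of the counts in the cortex sums, and these calls depend on it. Without it, and so with the 2 replicates of the other plate alone, 67 members were called higher than in ME fibroblast segments and 2 lower, and 22 were called higher than in ME pericyte segments and 1 lower. In that fit 7.01% and 2.36% of the 1441 probes tested were called higher, and 6.45% and 2.36% lower. The fitted log2 fold changes of the 138 members tested had medians of 2.06 and 2.31 there, against 2.19 and 2.34 with replicate 4. Without the 1 cortex pericyte segment of replicate 2 with the lowest share, 140 and 143 of 150 members tested were called higher, beside 21.9% and 22.8% of 1075 probes. A mixed model for each probe on single segments called 9 and 7 members higher, with 49 and 29 at an unadjusted p under 0.05, where 2.60% and 2.00% of the 999 probes were called higher. Its log2 fold changes for the members had medians of 2.44 and 2.28. Without any test, the 3 cortex pericyte sums lay above all 5 ME sums by CPM for 145 of the 200 probes, beside 4.00% of all probes, and below all 5 for 0.

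The first probes of the list also had the largest differences in the replicates that did not set it. Against ME fibroblast segments the mean log2 difference had a median of 3.10 over the first 50 probes, 2.44 over ranks 51 to 100, 2.10 over ranks 101 to 150 and 2.09 over ranks 151 to 200. The 350 probes that met both limits of level and ratio but ranked below the list had a median of 1.30. Against ME pericyte segments the same groups had medians of 3.24, 2.31, 2.35, 2.00 and 1.34. The 717 probes that reached 100 CPM in the cortex of replicate 3 without exceeding the ME by over 1.5 times had medians of 0.17 and 0.22. The last 50 probes of the list and the probes just below it therefore differ by degree.

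Levels of the probes in the cortex correlated more strongly between replicates than their differences from the ME. Across the 200 probes, log2 CPM in the cortex pericyte sums correlated at r = 0.65 between replicates 1 and 2, 0.76 between 1 and 4, and 0.73 between 2 and 4. Levels were not correlated over other probes, so how far this is particular to the 200 is not known. Differences from the ME fibroblast sum correlated at r = 0.34, 0.20 and 0.20, beside 0.23, 0.48 and 0.32 over the 717 probes with no cortex excess. These values are across probes, which share libraries and are not independent, and in replicates 1 and 2 a single count is worth 16.2 to 24.3 CPM in the sums compared. The counts were spread over the list: the 10 most abundant of the 200 probes held 26.6%, 29.7% and 23.4% of the counts of the set in the 3 cortex sums, and the single highest held 7.12%, 6.39% and 4.51%.

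RTS0072072, first in the list, had the smallest p with the filter against ME fibroblast segments of the probes called in both comparisons and higher in every replicate. It stood at 1972 CPM (81 counts) in the cortex pericyte sum of replicate 1, 853 CPM (46 counts) in replicate 2 and 2339 CPM (3159 counts) in replicate 4. In the ME fibroblast sums it stood at 48.6, 17.5 and 30.3 CPM, from 3, 1 and 3 counts. In the ME pericyte sums it had 0 counts in replicate 2 and 50.5 CPM in replicate 4. The cortex and ME values are far apart in every replicate. With no filter on low counts the fitted log2 fold change was 6.08 (SE 0.58, edgeR adjusted p = 1.89e-21) against ME fibroblast and 5.68 (SE 0.69, edgeR adjusted p = 1.20e-12) against ME pericyte segments. With the filter, which it passed through its cortex counts, the values were 5.57 (SE 0.43) and 5.42 (SE 0.51). In replicate 2 its level was 155 CPM in the cortex pericyte segment with the lowest share of the 200 probes. The mixed model did not call it, at log2 fold changes of 5.69 and 5.56 (lmerTest adjusted p = 0.16 and 0.26).

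RTS0063209, ranked 5, had the smallest p against ME pericyte segments after that probe. It stood at 1948, 1780 and 1316 CPM in the cortex pericyte sums of replicates 1, 2 and 4 and at 48.6, 35.0 and 40.3 CPM in the ME fibroblast sums. It had 0 counts in the ME pericyte sum of replicate 2 and 40.4 CPM in that of replicate 4. Its 6 cortex pericyte segments of replicate 4 ranged from 884 to 1878 CPM, and the ME segments of that replicate reached 76.2 CPM at most. In replicate 2 it was at 1663 and 1888 CPM in the cortex pericyte segments, so it was not reduced in the one where the list as a whole was low. With no filter the fitted log2 fold change was 5.54 (SE 0.54, edgeR adjusted p = 1.42e-20) against ME fibroblast and 5.56 (SE 0.66, edgeR adjusted p = 5.02e-13) against ME pericyte segments. With the filter, also passed through the cortex, the values were 5.09 (SE 0.40) and 5.23 (SE 0.49). Without replicate 4 the ME pericyte side was the 0 counts of replicate 2 alone, so its fold there is not given. The mixed model called it against ME fibroblast segments (5.52, lmerTest adjusted p = 6.85e-06) and not against ME pericyte segments (6.26, lmerTest adjusted p = 0.42).

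A few members went the other way in replicates 1 and 2. RTS0074162, ranked 102, had the lowest fitted log2 fold change against ME fibroblast segments, -0.70 (SE 1.36, edgeR adjusted p = 0.73), and was called lower without replicate 4, at -2.92 (edgeR adjusted p = 9.06e-09). In the ME fibroblast sums it stood at 858 and 824 CPM in replicates 1 and 2 but at 60.5 CPM in replicate 4, beside 51.2 CPM in replicate 3. In the cortex pericyte sums it stood at 146 and 92.7 CPM in replicates 1 and 2 and at 452 CPM in replicate 4, beside 510 CPM in replicate 3. In the ME pericyte sums it was at 453 CPM in replicate 2 and 131 CPM in replicate 4. The direction thus differed between replicates 1 and 2 and replicate 4, which was on the other plate, so that plate and animal cannot be told apart. In replicate 3 the rule fixed the direction. In the cortex GFP segment of replicate 2 it reached 1385 CPM (30 counts), its highest level in any segment.

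Over the list, 3 probes were more than 2 times higher in the ME fibroblast than in the cortex pericyte sum in both replicate 1 and replicate 2, namely RTS0074162 and the probes ranked 36 and 58. The probe ranked 36 stood at 405 and 508 CPM in the ME fibroblast sums of replicates 1 and 2 and at 50.4 CPM in replicate 4. Its cortex pericyte sums stood at 97.4, 55.6 and 456 CPM. The probe ranked 58 stood at 227 and 263 CPM in the ME fibroblast sums of replicates 1 and 2 and at 50.4 CPM in replicate 4, while its cortex pericyte sums stood at 73.0, 74.2 and 269 CPM. These 3 were picked out after their values were seen. All 3 were higher in the cortex in replicate 4, as their choice in replicate 3 had them.

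**Figure D3:**
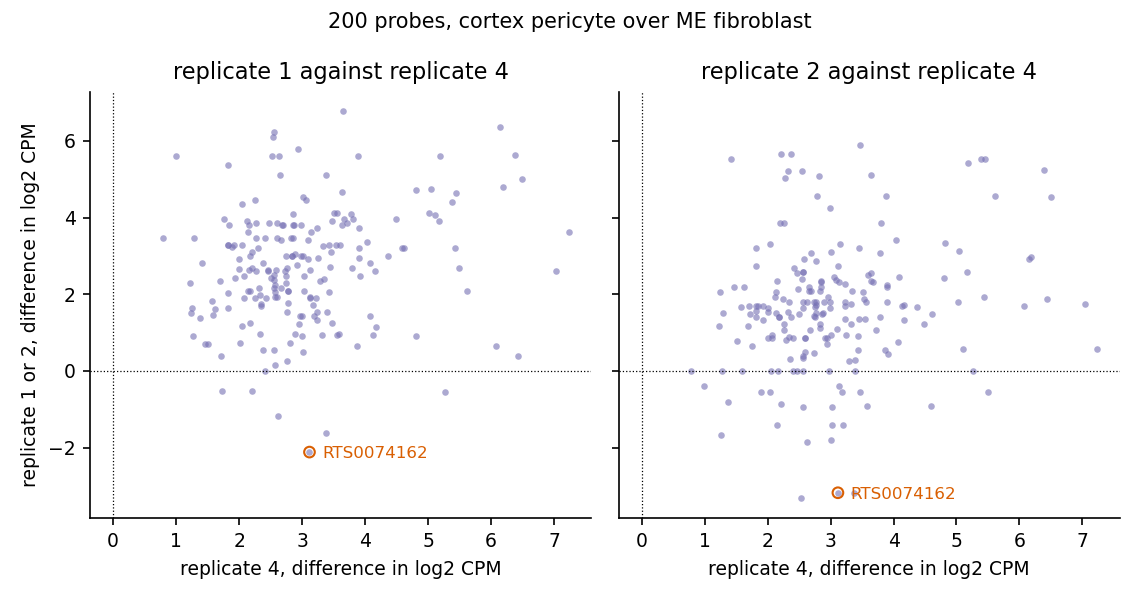
Difference in log2 CPM between cortex pericyte and ME fibroblast sums for each of the 200 probes, in replicate 1 (left) or 2 (right) on the y axis and in replicate 4 on the x axis. All 200 probes lie above 0 in replicate 4, with 193 above 0 in replicate 1 and 167 in replicate 2, and RTS0074162 is circled among those below 0.

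RTS0065364, ranked 107, was the 1 member called lower than in ME pericyte segments, with a log2 fold change of -1.26 (SE 0.44, edgeR adjusted p = 0.0213). That value rests on 1 segment. The 3 ME pericyte segments of replicate 4 ranged from 28.4 to 1197 CPM with a median of 99.0 CPM, and the 13 of replicate 3 reached 49.9 CPM at most. Without the highest segment the probe no longer passed the filter and got no test. Its cortex pericyte sums stood at 219, 18.5 and 158 CPM in replicates 1, 2 and 4, and its log2 fold change against ME fibroblast segments was 1.61 (SE 0.60, edgeR adjusted p = 0.0247). With no replicate block neither call held, at edgeR adjusted p = 0.052 against ME fibroblast and 0.093 against ME pericyte segments. Neither held with no filter (0.064 and 0.86), DESeq2 (0.17 and 0.46), limma (0.26 and 0.93) or the mixed model (0.67 and 0.85), and the first was also lost without replicate 1 (0.11) or 4 (0.75).

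The list is named for pericyte segments, and the 1 GFP segment of the cortex goes against reading it as restricted to them. That segment came from region of interest 6 of replicate 2, as did a cortex pericyte segment. In it the 200 probes held 3.89% of 21654 counts (exact 95% interval 3.64% to 4.16%), against 6.38% (6.10% to 6.68%) in the pericyte segment of the same region of interest. The ME fibroblast and ME pericyte segments of that replicate held 1.47% (1.38% to 1.58%) and 1.20% (1.08% to 1.34%). The intervals cover counting error only. The GFP segment was thus below its partner and above both ME segments, and above the other cortex pericyte segment of the replicate, at 3.24% (3.03% to 3.46%). The cortex GFP group is 1 segment, and no test across replicates was possible.

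Most of the single probes were higher in the cortex GFP segment than in both ME segments. Most were also lower in it than in the pericyte segment of the same region of interest. How many did both was not counted. The 200 probes had a median of 139 CPM in the cortex GFP segment, at percentile 92.5 of all probes there. By CPM, 162 of them were higher in it than in the ME fibroblast segment of the replicate and 163 higher than in the ME pericyte segment, and 150 were higher than in both, beside 35.0% of all probes. With 10 CPM added to each value, the median log2 difference was 1.18 from the ME fibroblast and 1.39 from the ME pericyte segment, with medians of 0.00 over all probes in both. Against the pericyte segment of the same region of interest the median log2 difference was -0.59. In the GFP segment 145 of the 200 were lower and 55 higher. Over all 20175 probes the median was 0.00, with 7566 lower and 8546 higher. Over the 717 probes with no cortex excess it was -0.19, with 416 lower and 295 higher. RTS0072072 stood at 693 CPM and RTS0063209 at 600.4 CPM in the GFP segment. In this replicate the median difference of the GFP segment from either ME segment was larger in size than that from the pericyte segment of its own region of interest.

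**Figure D4:**
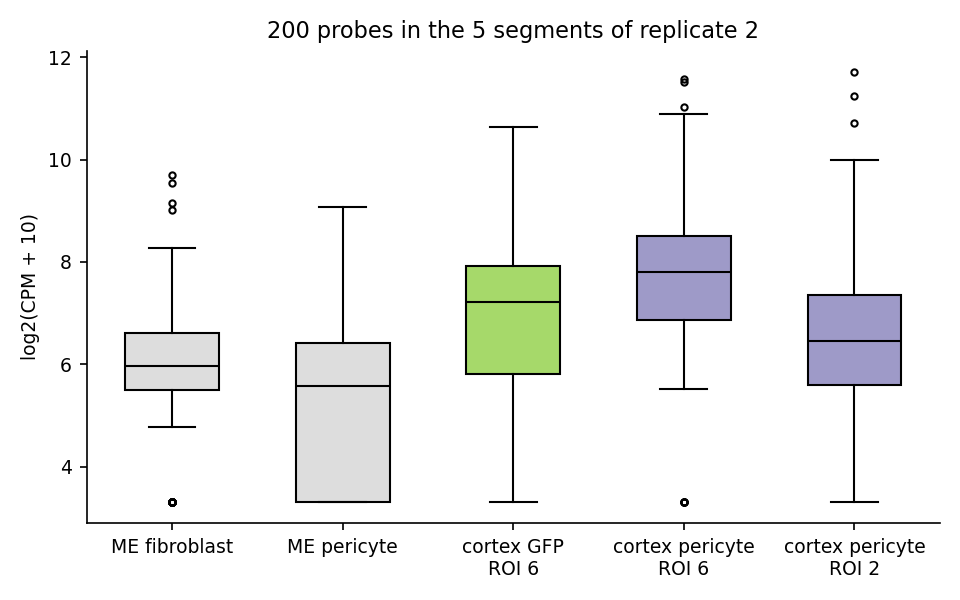
Levels of the 200 probes, as log2(CPM + 10) on the y axis, in each of the 5 segments of replicate 2. Boxes span the quartiles with the median as a line, whiskers reach the last point within 1.5 times the interquartile range, and circles are probes beyond them. The cortex GFP segment (median 139 CPM) lies between the ME segments and the cortex pericyte segment of the same region of interest, ROI 6.

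The share of members called between the ME segment types was near that of all probes. Of the 139 tested, most of which passed the filter through the cortex, 2 were called between ME fibroblast and ME pericyte segments, both lower in fibroblast segments, beside 1.40% of all 999 probes. One of the 2 was RTS0065364, at a log2 fold change of -2.87 (SE 0.64, edgeR adjusted p = 0.0095), and without the ME pericyte segment in which it was high 1 member was called. In a fit of the ME sums alone only 14 members were tested, and 1 was called, beside 5.69% of 932 probes. The summed share of the list was also compared between the pericyte and fibroblast segments of the same region of interest. It was higher in the pericyte segment in 3 of 3 pairs of replicate 4 and lower in the 1 pair of replicate 2. Replicates 2 and 4 thus differed in direction, and the pairs of replicate 4 were taken as 1 animal. In replicate 3 the share was higher in the pericyte segment in 12 of 13 pairs. The ME sums of replicate 3 helped to choose the list, so its pairs are a description only. In replicate 4 the shares were 1.06% to 1.17% in pericyte and 0.917% to 0.967% in fibroblast segments. These differences are small beside that from the cortex.

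Cortex pericyte segments also differed from one another in some of these probes beyond counting error. The variance of a probe's counts over the 6 segments of a replicate, divided by that which counting alone gives, had a median of 1.77 over the 200 probes in replicate 3 and 2.04 in replicate 4. The 717 probes with no cortex excess had medians of 1.36 and 1.16. A ratio above 5 was reached by 34 of the 200 in replicate 3 and by 32 in replicate 4, or 17.0% and 16.0%, against 4.60% and 3.63% of the 717. The 200 probes include more abundant ones, for which the ratio can grow larger, and no test was made.

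The 34 variable probes of replicate 3 were split by the sign of their loading on the first principal component of its 6 segments. For 30 the sign was that of the most abundant of them, and for 4 it was the opposite. A small loading can take either sign, so the 4 need not all have fallen where the 30 rose. The split used replicate 3 alone. In replicate 4, 28 of the 30 correlated positively over the 6 segments with the mean of the rest of the 30, with a median r of 0.71, and 121 of the other 166 members did so with the mean of all 30, with a median r of 0.39. Of the 717 probes with no cortex excess, 413 did so with that mean, with a median r of 0.15. Of the 4, 2 did so. The share of the 30 ranged from 1.48% to 2.63% of counts over the 6 cortex pericyte segments of replicate 4. It was 2.06% in replicate 1 and 0.715% and 2.02% in replicate 2, against 0.154% to 0.289% in ME segments. In the cortex GFP segment it was 1.29%.

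RTS0072072 and RTS0074162 were on opposite sides of that split. In the 6 cortex pericyte segments of replicate 4, RTS0072072 ranged from 1398 to 3937 CPM with a median of 2243 CPM. RTS0074162 ranged from 119 to 733 CPM with a median of 372 CPM. The segment from region of interest 6 of replicate 4 had the highest level of the first, 3937 CPM, and the lowest of the second, 119 CPM. The 4 probes together took 0.189% of counts in the cortex GFP segment, against 0.029% in the pericyte segment of its region of interest, from 41 and 8 counts, and 0.140% in the ME fibroblast segment of the replicate, from 80 counts. RTS0074162 gave 30 of the 41 and the probe ranked 36 gave 9.

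**Figure D5:**
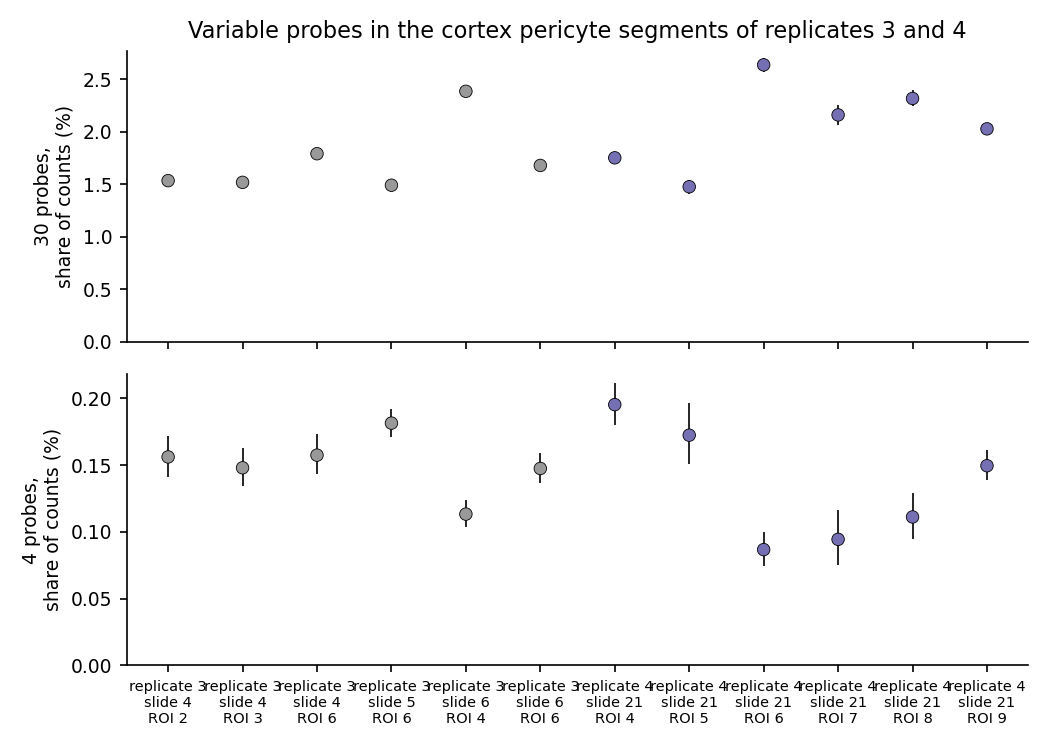
Share of counts (y axes, %) held by the 30 variable probes (top) and the 4 of opposite loading sign in replicate 3 (bottom), in each cortex pericyte segment of replicates 3 and 4, with exact 95% binomial intervals. In replicate 4 the top share runs from 1.48% to 2.63%, and the segment highest in the 30 probes, ROI 6, is the lowest in the 4.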

How the data were processed

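GeoMx whole transcriptome probes were counted in 53 segments. The authors processed reads with GeoMx NGS Pipeline 2.3.4, per the file headers, and deposited raw counts per probe with no normalization. The 893633 deposited counts are whole numbers, and probes that a file does not list were taken as 0. A check of the unit could not read 8 files, which were entered as other and checked as whole-number counts when loaded. Probes were not paired with genes, so markers, gene lists and sequences are not reported here.

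Members, lists and tests were chosen with earlier results of these data known. Counts were summed per replicate and segment type (21654 to 2382682 counts per sum) and fitted with edgeR 4.0.16 (R 4.3.3) over the 8 sums of replicates 1, 2 and 4, with upper-quartile scaling, filterByExpr (minimum count 10), a robust quasi-likelihood F test and a term for the replicate (3 residual degrees of freedom). Variance was shared between probes, and standard errors, the log2 fold change over the square root of F, rest on it. Log2 CPM used a prior count of 2. The edgeR p-values rest on the variance shared between probes as well as on each probe's own spread between these replicates.

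Sums were paired by replicate, because segments with the same replicate number were taken to come from 1 animal. Deviations from the group means correlated at 0.0094, 0.071 and 0.19 within replicates 1, 2 and 4 for cortex pericyte with ME fibroblast sums, at 0.14 for cortex pericyte with ME pericyte sums and at 0.29 for both ME types.

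The probes named were those of smallest p in each comparison among members called in both and higher in every replicate, and those of lowest fitted log2 fold change in each. The spread limit of 5, the probes ranked 36 and 58 and the segments left out singly were chosen after seeing the data. Alternatives were TMM or total scaling, no filter, no block, DESeq2 1.42.0, limma 3.58.1 and a mixed model (lmerTest 3.1.3). The edgeR step was run on simulated counts of probes past the filter, with the same spread for every probe and no replicate or plate effect. That run does not bear on the fit with no filter or on such effects.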

Additional observations from a re-analysis of the deposited data

Results flagged for a closer look

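The 1 segment used in no tested comparison, the cortex GFP segment, held 3.89% of its counts in the 200 probes, above every ME segment. Among 24 checks for a sample far from the others of its group, 3 values stood apart, where chance gives about 1 in 20. The 30 variable probes took 2.38% of counts in 1 of the 6 cortex pericyte segments of replicate 3, the highest. RTS0072072, one of the 30, was at 3111 CPM in the same segment. RTS0065364 was at 190.5 CPM in another cortex pericyte segment of replicate 3, where the median of the 6 was 159 CPM.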

How the results depend on the processing

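The counts of members called higher under the filter were 129 against ME fibroblast and 130 against ME pericyte segments. Members passed that filter mostly through the cortex, so the steadiness of these counts carries no weight of its own. The counts with no filter, 155 and 145, were not refitted under the other settings. Most alternatives stayed within 1.5 times of 129 and 130. Those that did not included the fit without replicate 4, whose counts follow. The fit of only the segment types compared gave 78 of 82 members tested against ME fibroblast segments, beside 25.6% of 581 probes. Limma on mean log2 values gave 81 against ME pericyte segments, beside 11.8% of 999 probes. The mixed model on single segments gave 9 and 7. The fit of only the types compared tested fewer probes, and the cause of the other shifts was not tested. Leaving out each replicate in turn gave 67 to 167 and 22 to 175, lowest without replicate 4, where 138 members were tested, and highest without replicate 2, where more passed the filter (9.48% and 8.30% of 3640 probes called higher). Without replicate 2 or 4 a single ME pericyte sum remained, assumed to vary like the others. With no replicate block, so without the pairing, the counts were 129 and 128, and 1 between the ME types. That last count, 2 as reported, was 1 with TMM scaling, no filter, only the types compared or without the ME pericyte segment highest in RTS0065364, 0 with DESeq2 (8 members at an unadjusted p under 0.05) or limma (4), and 0 to 4 without each replicate, at 0 without replicate 4 (8 at an unadjusted p under 0.05). Upper-quartile scaling placed the median of all probes tested at -0.10 against ME fibroblast segments and library totals at 0.08.

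The median log2 difference against ME fibroblast segments, 2.38, was 1.74 as a mean over single segments and 1.61 over all 550 probes past both limits, and 2.15 to 2.75 without each replicate. That against ME pericyte segments, 2.36, was 2.17 with library totals, 1.69 over single segments, 2.76 for the first 100 members and 1.71 for all 550, and 2.26 to 2.50 without each replicate. The share in cortex pericyte segments, 6.05%, was 5.74% to 6.64% without each replicate and 6.55% without the segment lowest in it.

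RTS0074162 changed sign against ME fibroblast segments without replicate 1 (0.15) or 2 (0.23, range over replicates left out -2.92 to 0.23), and against ME pericyte segments, 0.38 as reported, without replicate 4 (-2.11, range -2.11 to 1.09), with DESeq2 (-0.0052), limma (-0.64) and the mixed model (-0.49). RTS0065364 changed sign against ME pericyte segments without replicate 4 (0.34, range -1.33 to 0.34). Depth limits replicates 1 and 2, where 1 count was worth 16.2 to 37.8 CPM in the sums compared.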
